A study of Bos taurus with 22 samples.

Results

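Chylomicron assembly and fat absorption in the jejunal mucosa were described through 10 genes chosen by name for their roles in that pathway: APOB, APOA1, APOA4, APOC3, MTTP, FABP1, FABP2, DGAT1, MOGAT2 and CD36. All 10 had a row among the 27570 genes of the count table, of which 21855 had at least 1 count in the 22 steers, and all 10 passed the filter on low counts in each comparison. Every Holstein steer received an abomasal infusion of raw corn starch (3.94 g/kg of body weight per d) for 7 d and weighed 220 to 294 kg. The treatments were abomasal water with a vehicle injection of bovine serum albumin, called BSA (control, n = 5), water with subcutaneous glucagon-like peptide 2 at 100 µg/kg of body weight per d (GLP-2, n = 5), sodium caseinate at 1.30 g/kg of body weight per d with vehicle (casein, n = 6), and caseinate with GLP-2 (casein + GLP-2, n = 6). Each sample came from a separate steer, and steers are named here by treatment and by the number of the replicate block, a stratum of body weight. GLP-2 was compared with BSA over both infusions (n = 11 and 11), casein with water over both injections (n = 12 and 10), and the treatments were also compared in pairs.

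Dietary fat leaves the enterocyte as chylomicrons, large lipoproteins built around apolipoprotein B. Fatty acids are taken up across the apical membrane, carried in the cytosol by fatty acid binding proteins, esterified to triacylglycerol at the endoplasmic reticulum and loaded onto apolipoprotein B by the microsomal triglyceride transfer protein, after which the particle gains apolipoproteins A-I, A-IV and C-III and moves to the Golgi. In ruminants most fat reaches the intestine as free fatty acids, since microbes hydrolyse and hydrogenate dietary lipid in the rumen.

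The tissue was a mucosal sample of mixed cells, so fewer enterocytes and less RNA per enterocyte cannot be told apart in these values. All 19 villus enterocyte markers and all 10 general epithelial markers were detected in every steer, as were 3 of 4 ileal enterocyte markers, at a summed level of 66.1 to 368 CPM (a count divided by the library's total count after scaling). The leptin gene LEP was at 0 in every steer and the summed level of the adipocyte markers was 2.74 to 17.5 CPM. Libraries held 8809666 to 28447810 counts in genes. Markers of B cell follicles set 4 steers apart: their follicle score, the mean log2 CPM of the listed markers, was above 6 in control steers 1, 3 and 5 and casein steer 3, against 0.60 to 3.78 in the other 18 steers, and no GLP-2 injected steer was among the 4. The comparison of GLP-2 with BSA is given with and without them.

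The 10 genes lie on 5 chromosomes, and 3 of them form a cluster on chromosome 15 (coordinates are of the ARS-UCD1.2 build). APOB (ENSBTAG00000008505), the structural protein of the chylomicron, is at chr11:77885935-77927967 on the forward strand. APOA4 (ENSBTAG00000019770, chr15:27475732-27489136, reverse strand) and APOA1 (ENSBTAG00000002258, chr15:27490875-27505442, reverse strand) encode the apolipoproteins A-IV and A-I, and 1738 bases separate them. APOC3 (ENSBTAG00000012398, chr15:27486034-27488618, forward strand), which encodes an inhibitor of lipoprotein clearance, lies wholly inside the APOA4 locus on the other strand. The libraries were strand-specific, but the strand setting of the counting is not given in the sources used here, so reads of APOA4 and APOC3 may not be told apart.

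MTTP (ENSBTAG00000011944, chr6:25005876-25062589, reverse strand) encodes the large subunit of the microsomal transfer protein. The cytosolic fatty acid carriers are FABP1 (ENSBTAG00000018054, chr11:47917375-47923252, forward strand), the liver type, and FABP2 (ENSBTAG00000017045, chr6:5970114-5973346, reverse strand), the intestinal type. DGAT1 (ENSBTAG00000026356, chr14:603813-612791, forward strand) adds the last acyl chain of triacylglycerol, and MOGAT2 (ENSBTAG00000049519, chr15:54884911-54897038, forward strand) acylates monoacylglycerol. A second locus with the symbol MOGAT2 (ENSBTAG00000037483, chr15:55112737-55124658) had 0 counts in all 22 steers, and whether reads common to both loci were dropped is not given. CD36 (ENSBTAG00000017866, chr4:40380301-40443336, reverse strand) encodes a membrane protein that binds and takes up fatty acids. Each count covers the whole gene, so no exon or untranslated region was measured apart.

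These genes included the messages with the most counts in the tissue. FABP2, APOA1 and FABP1 ranked 1, 2 and 3 of all genes by total counts, APOB ranked 12, APOC3 16, MTTP 48 and APOA4 78. CD36 and DGAT1 ranked 286 and 375, and MOGAT2 ranked 3027. Total counts also rise with gene length. By mean level per length FABP2, FABP1, APOA1 and APOC3 ranked 2, 3, 4 and 7 of all genes. MTTP, APOA4 and APOB ranked 215, 241 and 309 there, and DGAT1, CD36 and MOGAT2 463, 757 and 2400. Together the 10 genes took 0.271% of the counts of control steer 5 and 9.15% of those of casein + GLP-2 steer 1. The median share was 3.17% in control steers, 4.41% in GLP-2 steers, 2.47% in casein steers and 5.74% in casein + GLP-2 steers.

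Levels between genes were compared per length, as log2 of RPKM, which is the CPM (scaled by the trimmed mean of M values, TMM) divided by the gene's length in kilobases, averaged over 22 steers. The carriers FABP2 (13.62) and FABP1 (13.21) stood highest, followed by the apolipoproteins APOA1 (12.27) and APOC3 (11.90). A gap of 3.65 log2 units, present in 22 of 22 steers, separated APOC3 from MTTP (8.25). APOA4 followed at 7.69, and APOB, whose message is the longest of the 10, reached 7.40, level with DGAT1 at 7.40 (mean difference 0.00068, SD 1.29, adjusted p = 0.998). CD36 (6.44) and MOGAT2 (4.56) were lowest. The other 8 neighbours in this order differed in paired sign-flip permutation tests over steers (100000 resamples, two-sided), with Benjamini-Hochberg adjusted p over the 9 pairs of 3e-05 to 0.0287. These p-values measure the spread between steers, not a bias between genes. The study reported RNA of varied integrity, and its part in levels between genes of unlike length was not tested.

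**Figure D1:**
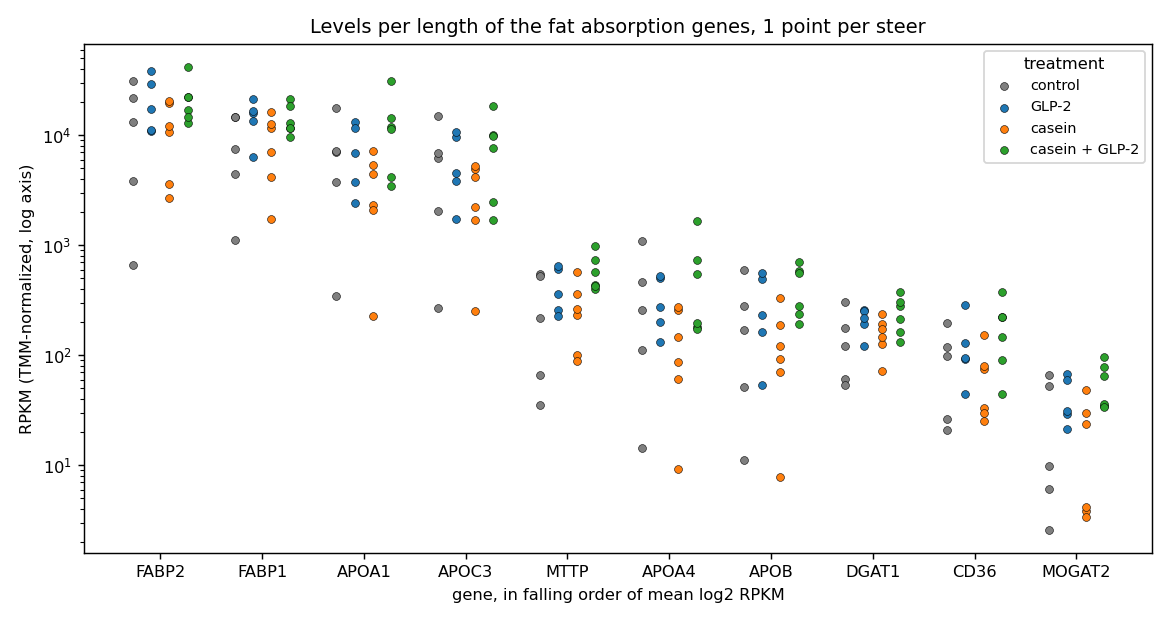
Level per length of each gene (RPKM, log axis) in each of the 22 steers, coloured by treatment, with genes in falling order of mean log2 RPKM. FABP2, FABP1, APOA1 and APOC3 lie above the other 6 genes on average, and a few control and casein steers lie far below the rest for most genes.

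The spread between steers was wide. APOA4 ranged 182-fold from the lowest to the highest steer, APOA1 138-fold, APOB 89.7-fold and APOC3 71.8-fold. FABP2 ranged 63.3-fold, MOGAT2 37.2-fold, MTTP 27.5-fold, FABP1 19.3-fold and CD36 18-fold, and DGAT1 varied least at 7.09-fold. In log2 RPKM the SD over 22 steers was 1.62 to 1.78 for the 4 apolipoproteins, 1.63 for MOGAT2, 1.11 to 1.41 for MTTP, FABP1, FABP2 and CD36, and 0.75 for DGAT1.

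Whether exogenous GLP-2 administration changed the genes of chylomicron assembly was asked first. All 10 had a higher fitted mean with GLP-2 than with BSA, by 0.61 to 1.16 log2 units (median 0.93, against 0.01 over all genes tested), but 0 of 10 passed, the limit being 0.05 for the adjusted p of the edgeR quasi-likelihood test. Of all 13928 genes tested 13.5% passed, 5.13% higher and 8.37% lower. CD36 tended to be higher (adjusted p = 0.0880), with a tendency defined as an adjusted p of at most 0.1, which 26.1% of all genes met. At an unadjusted p of at most 0.05, 5 of 10 (MTTP, FABP1, DGAT1, MOGAT2 and CD36) passed, all higher, against 34.6% of all genes and 16.5% in that direction. DESeq2 called 1 of 10 (CD36, adjusted p = 0.0420), where it called 21.5% of all genes. Limma on log2(FPKM + 1) called 2 (MTTP, adjusted p = 0.0460, and MOGAT2, adjusted p = 0.0326) and 15% of all genes, and on log2(FPKM + 0.1) the same 2 and 14.2% of all genes. At the adjusted limit the member counts were near or below the shares over all genes, which count both directions. The study, with DESeq2 on a larger set of steers, named APOB among its differentially expressed genes. It also listed fat digestion and absorption among the pathways higher with GLP-2. Without control steer 2 the edgeR fit called 4 of 10 (APOB, DGAT1, MOGAT2 and CD36) while the share of all genes called also rose, to 25%, and it called 0 with any of the other 21 steers left out. With the replicate block in the fit the log2 fold changes were 0.70 to 1.52 (median 1.07). There 0 of 10 passed, against 4.95% of all genes. In that fit 3 tended to be higher, and the share of all genes at a tendency is not given for it.

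CD36, the fatty acid receptor, was measured at 416, 825, 112, 495 and 88.8 CPM in control steers 1 to 5. GLP-2 steers 1, 3, 4, 5 and 6 had 389, 547, 188, 399 and 1214 CPM. Casein steers had a lowest, median and highest level of 106, 226 and 640 CPM, and casein + GLP-2 steers of 188, 776 and 1597 CPM. GLP-2 and BSA steers overlapped: 5 of 11 BSA steers were below the lowest GLP-2 injected steer and 4 of 11 GLP-2 injected steers were above the highest BSA steer. GLP-2 injected steers averaged 672 ± 449 CPM and BSA steers 327 ± 247 CPM (SD, n = 11 each), or 1.07 ± 0.43 log2 units (SE) higher, with a 95% interval of 0.18 to 1.96.

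APOB was lowest in casein steer 1 (111 CPM) and highest in casein + GLP-2 steer 3 (9924 CPM). Control steers 1 to 5 had 2414, 8503, 724, 3937 and 157 CPM, and GLP-2 steers 1, 3, 4, 5 and 6 had 3305, 6960, 765, 2322 and 7862 CPM. Control steer 2 was thus above every steer given GLP-2 alone. Casein steers had a lowest, median and highest level of 111, 1508 and 4725 CPM, and casein + GLP-2 steers of 2738, 5985 and 9924 CPM. GLP-2 injected steers averaged 5230 ± 3046 CPM and BSA steers 2480 ± 2485 CPM (SD, n = 11 each), which is 1.10 ± 0.55 log2 units higher (SE, edgeR adjusted p = 0.159), and 3 of 11 BSA steers lay below the lowest GLP-2 injected steer.

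Among the exchangeable apolipoproteins APOA4 had the widest spread. It was at 837, 3527, 363, 1511 and 46.6 CPM in control steers 1 to 5 and at 649, 1623, 429, 884 and 1694 CPM in GLP-2 steers 1, 3, 4, 5 and 6. Casein steers had a lowest, median and highest APOA4 level of 29.6, 380 and 883 CPM, and casein + GLP-2 steers of 556, 1204 and 5409 CPM. Control steer 2 and casein + GLP-2 steer 1 were the highest, and control steer 5 and casein steer 1 were far below the other 20.

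APOA1, the main protein of high-density lipoprotein, averaged 15259 ± 11988 CPM in the GLP-2 injected and 7725 ± 7188 CPM in the BSA steers (SD, n = 11 each), and ranged from 331 to 45741 CPM. APOC3 averaged 3794 ± 2634 and 2308 ± 2171 CPM (SD, n = 11 each). The log2 fold change, GLP-2 against BSA, was 1.02 ± 0.56 (SE) for APOA1, 0.93 ± 0.61 for APOA4 and 0.75 ± 0.54 for APOC3, with edgeR adjusted p of 0.195, 0.283 and 0.333. For APOA1 and APOC3, 7 of 11 GLP-2 injected steers were above the BSA median, and for APOA4 10 of 11 were.

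MTTP, which loads triacylglycerol onto apolipoprotein B, was at 887, 2217, 271, 2162 and 145 CPM in control steers 1 to 5. In GLP-2 steers 1, 3, 4, 5 and 6 it was at 1062, 2492, 928, 1469 and 2655 CPM. Casein steers had a lowest, median and highest level of 359, 1002 and 2328 CPM, and casein + GLP-2 steers of 1617, 2058 and 3990.4 CPM. Of the steers, 5 of 11 BSA steers were below the lowest GLP-2 injected steer and 5 of 11 GLP-2 injected steers were above the highest BSA steer. GLP-2 injected steers averaged 2096 ± 905 CPM and BSA steers 1115 ± 820.0 CPM (SD, n = 11 each), and the log2 fold change was 0.93 ± 0.40 (SE, 95% interval 0.11 to 1.76, edgeR adjusted p = 0.105).

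The intestinal carrier FABP2 was at 9356, 21849, 2697, 15593 and 466 CPM in control steers 1 to 5 and at 7672, 27095, 7981, 12163 and 20701 CPM in GLP-2 steers 1, 3, 4, 5 and 6. In casein steers its lowest, median and highest level was 1889.6, 8059 and 14362 CPM, and in casein + GLP-2 steers 9096, 13862 and 29491 CPM. No GLP-2 injected steer fell below 7672 CPM, whereas 5 of 11 BSA steers did. The log2 fold change was 0.79 ± 0.46 (SE, edgeR adjusted p = 0.219). FABP1, the liver-type carrier, averaged 9727 ± 3182 CPM in the GLP-2 injected and 5810.1 ± 3652 CPM in the BSA steers (SD, n = 11 each), which is 0.76 ± 0.37 log2 units higher (SE, adjusted p = 0.142), and 4 of 11 BSA steers were below the lowest GLP-2 injected steer.

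The acyltransferases differed in level and in spread. MOGAT2 was at 18.9, 126, 11.5, 100.2 and 4.96 CPM in control steers 1 to 5 and at 55.4, 129.9, 40.5, 59.6 and 113 CPM in GLP-2 steers 1, 3, 4, 5 and 6. Casein steers had a lowest, median and highest level of 6.40, 26.6 and 93.1 CPM, and casein + GLP-2 steers of 64.0, 96.7 and 184 CPM. Each of the 11 GLP-2 injected steers was above the BSA median of 18.9 CPM, and 6 of 11 BSA steers were below the lowest GLP-2 injected steer at 40.5 CPM. GLP-2 injected steers averaged 95.9 ± 46.4 CPM and BSA steers 43.5 ± 44.4 CPM (SD, n = 11 each), which is 1.16 ± 0.51 log2 units higher (SE, 95% interval 0.11 to 2.22, edgeR adjusted p = 0.111).

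DGAT1 was at 257, 646, 131, 378 and 114 CPM in control steers 1 to 5 and at 257, 547, 407, 539 and 461 CPM in GLP-2 steers 1, 3, 4, 5 and 6. Casein steers had a lowest, median and highest level of 153, 341 and 509.6 CPM, and casein + GLP-2 steers of 279, 526 and 807 CPM. The log2 fold change was the smallest of the 10, at 0.61 ± 0.27 (SE, edgeR adjusted p = 0.112), and 4 of 11 BSA steers were below the lowest GLP-2 injected steer.

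**Figure D2:**
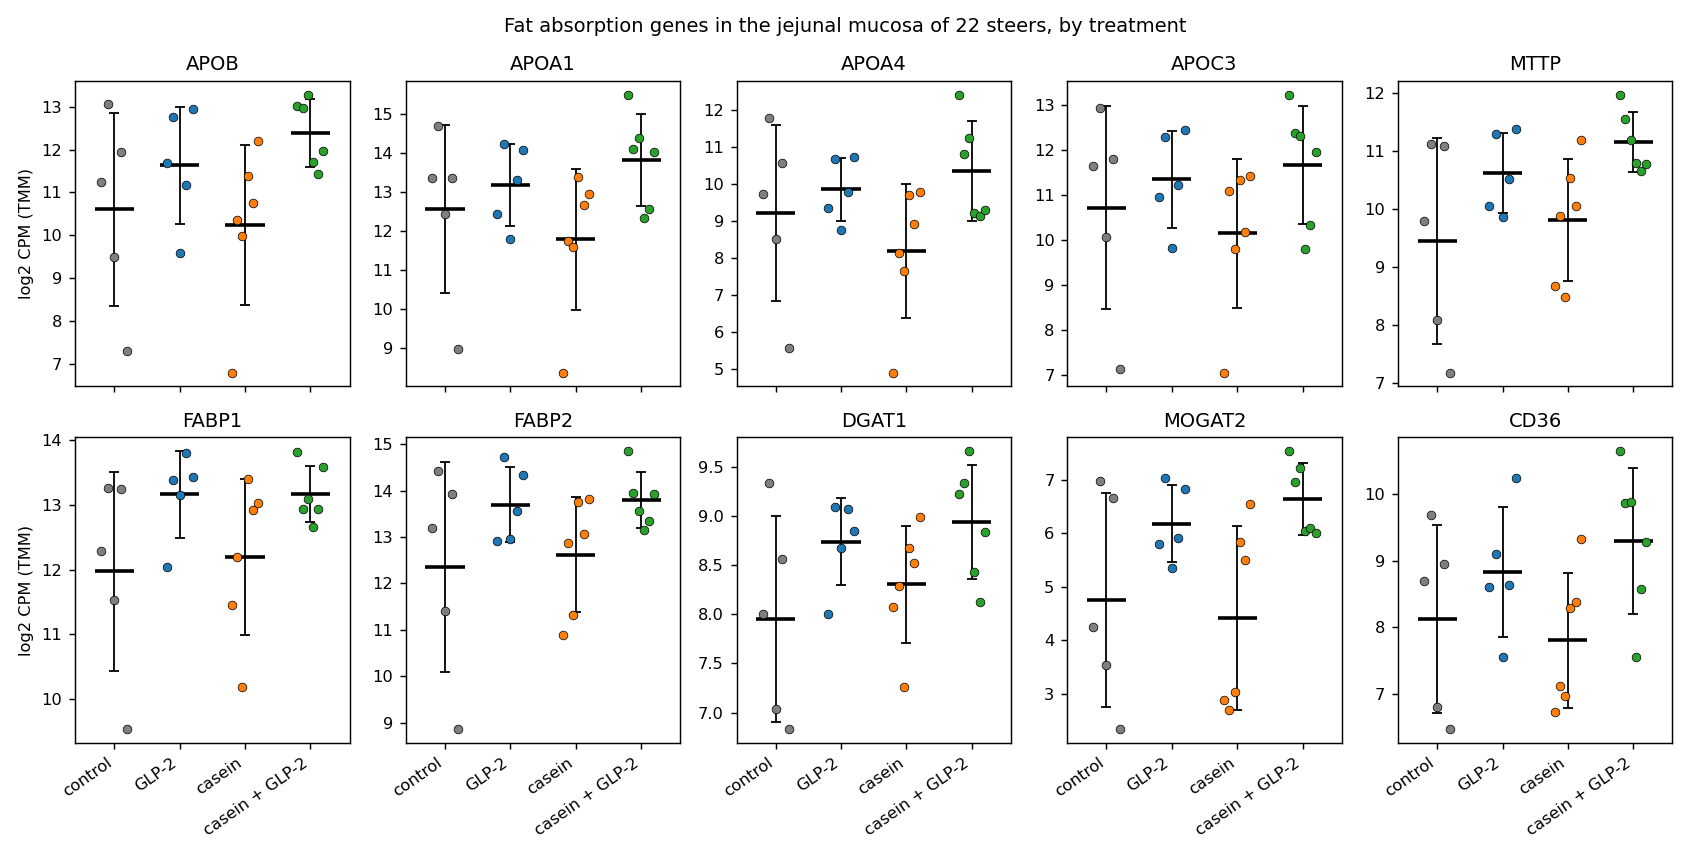
Log2 CPM of each gene in each steer by treatment, with 1 point per steer, a horizontal bar at the treatment mean and a vertical bar of 1 SD. The groups overlap for all 10 genes, and the lowest points, under the range of the GLP-2 and casein + GLP-2 steers, are control and casein steers.

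The same few steers were low for most of these genes. Control steer 5 and casein steer 1 were below every GLP-2 injected steer for 10 and 9 of the 10 genes, in that order, casein steer 3 for 8 and control steer 3 for 8. The 4 follicle-rich steers were all BSA steers, and B cell follicle markers moved with the injection. Of the 13 tested, 12 fell past the test, where 8.37% of all genes did (median −3.40 on the log2 scale). Their summed level was 105 to 159 CPM in GLP-2 injected steers, 140.4 to 2390.5 CPM in control steers and 131 to 2599 CPM in casein steers. Without these 4 steers the 10 genes were 0.24 to 0.74 log2 units higher with GLP-2 (median 0.50, edgeR adjusted p of 0.450 to 0.732), and 0 of 14285 genes tested passed. That fit held 18 steers, with only BSA steers removed, so the test was weaker. The score that picked them also ran against the 10 genes over 22 steers (Pearson's r of −0.885 to −0.539).

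Villus enterocyte markers also moved with the injection. All 19 had a higher fitted mean with GLP-2, as did 50.7% of all genes (median log2 fold change 1.06). Of these markers 5 passed the test, where 5.13% of all genes passed and were higher. Their summed level was 9950.1 to 31548 CPM with GLP-2, 2193 to 20111 CPM in control and 3162 to 16833 CPM in casein steers. Proliferating crypt cell markers were lower, with a median of −0.90 log2 units and 5 of 10 past the test, where 8.37% of all genes fell. Of the smooth muscle markers, 9 of 10 had a lower fitted mean (median −1.07) and 0 passed the test. With the villus score as a covariate the log2 fold changes of the 10 genes ran from −0.42 to 0.11, with 6 of 10 below 0, and with the follicle score as a covariate from −0.11 to 0.30, with 4 of 10 below 0. In both fits 0 of 13928 genes passed. Both scores moved with the injection and come from the same libraries as the genes. These fits therefore cannot separate tissue composition from RNA per cell, and the part of composition was not tested.

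Across the 22 steers each gene was higher in steers with a higher villus enterocyte score. Pearson's r was 0.782 (APOC3) to 0.934 (MTTP) and Spearman's rho 0.635 (FABP1) to 0.920 (MOGAT2), with permutation p values adjusted over the 10 genes of at most 5e-05 for r and at most 0.00174 for rho. Without the 2 steers farthest from the median score, control 5 and casein 1, r was 0.595 to 0.895, and with treatment means removed it was 0.774 to 0.928. Because the follicle-rich steers also had low villus scores, the relation was computed in the other 18, where r was 0.546 (DGAT1) to 0.916 (APOB) with permutation p adjusted over the 10 genes of 0.0001 to 0.0157. In those 18 steers FABP1 had a rho of 0.358 (permutation p = 0.144 after adjustment), and its r fell from 0.636 to 0.280 without GLP-2 steer 3 and casein steer 1, so that its relation there rests on that pair of steers. Other scores moved with the genes too, in the opposite direction. Over the 22 steers r with the proliferating crypt cell score was −0.903 (DGAT1) to −0.664 (APOC3) and rho −0.889 to −0.674, with permutation p adjusted over the 10 genes of at most 0.00085, and without the 2 farthest steers r was −0.902 to −0.780. With the smooth muscle score r was −0.770 (MTTP) to −0.609 (FABP1), with adjusted permutation p of at most 0.00262, and rho −0.732 to −0.415, where FABP1 did not pass (adjusted permutation p = 0.0562), and r without the 2 farthest steers was −0.731 to −0.423. In the 18 steers outside the follicle-rich ones, r was −0.860 to −0.714 with the crypt score, −0.723 to −0.436 with the smooth muscle score (8 of 10 with an adjusted permutation p of at most 0.05) and −0.727 (DGAT1) to −0.514 (FABP1) with the B cell follicle score, the last with adjusted permutation p of 0.0046 to 0.0286 for r and rho of −0.808 to −0.546. For DGAT1 the relation in those 18 steers was 0.546 with the villus, −0.838 with the crypt and −0.727 with the follicle score. Genes and scores come from the same libraries and share their scaling.

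**Figure D3:**
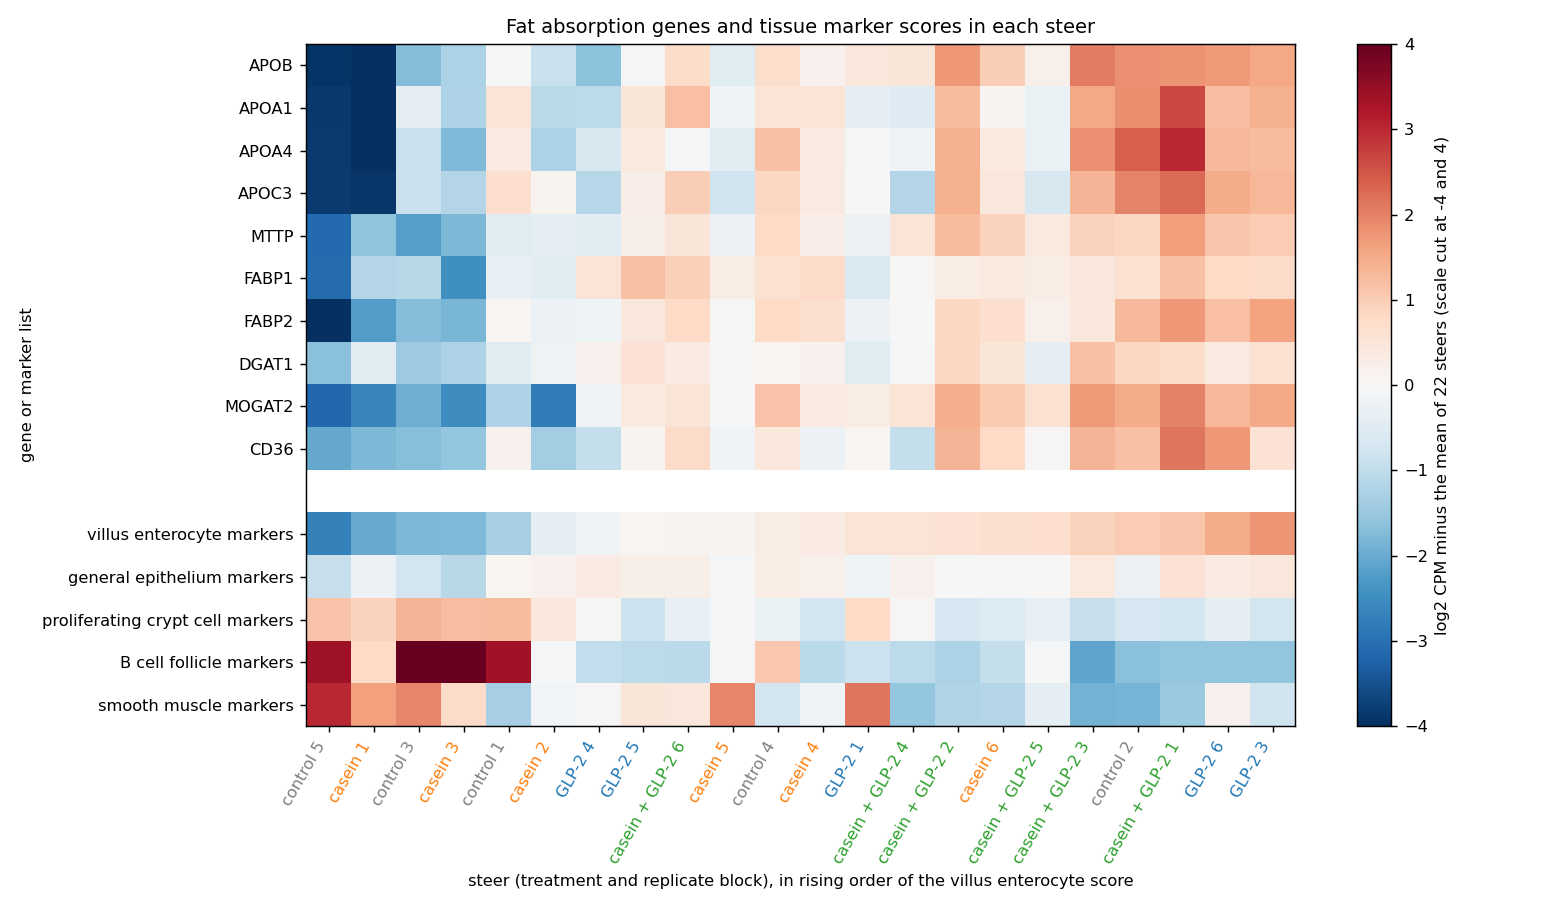
Log2 CPM of the 10 genes and the scores of 5 tissue marker lists in each steer, each as the difference from its mean over 22 steers, with steers in rising order of the villus enterocyte score and label colours by treatment. The genes are low at the far left, in control steers 5 and 3 and casein steers 1 and 3, and high at the right, where villus scores reach 9.98. Control steer 1, the other follicle-rich steer, is above the mean for some genes and below it for others.

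Among the 45 pairs of the 10 genes r over 22 steers was 0.716 (APOA1 and DGAT1) to 0.971 (APOA1 and APOA4), with a median of 0.872 and permutation p adjusted over the pairs of at most 0.00053. The apolipoproteins were close to each other: r was 0.951 for APOA4 with APOC3, which overlap in the genome, and 0.938 to 0.949 for APOB, on another chromosome, with the other 3. FABP2 followed MTTP (r = 0.955). For each pair r was also computed without the 2 steers farthest from the median of its first gene, in the order the genes are listed. The steers left out thus differed between pairs, and the range over the pairs was 0.577 to 0.933.

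The pattern of the 10 genes, the mean of their standardised log2 CPM, had its lowest value in control steer 5 (−2.32) and its highest in casein + GLP-2 steer 1 (1.33). Of the 6 lowest steers, 5 were BSA steers. The genes outside the set most like it, of 13236 with a symbol compared over 22 steers, were ABCG2, an efflux transporter (r = 0.985), ENPP3, an ectonucleotidase (0.982), MGC127055 (0.978), LAPTM4B (0.978), UNC93A (0.975), ALDH3A2, a fatty aldehyde dehydrogenase (0.975), RBP2, the intestinal retinol carrier (0.975), LGALS3 (0.973), CREB3L3, a transcription factor known to act on apolipoprotein genes (0.972), and CYP2C87 (0.972). With treatment means removed these r were 0.963 to 0.980.

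Postruminal casein infusion was compared with water in the same steers. No gene of the set passed the test, and none came to 0.05 or less before adjustment, where 0% of 14096 genes passed after adjustment and 3.36% before. DESeq2 and limma also called 0 of 10, where DESeq2 called 0.0355% of all genes and limma 0%. The log2 fold changes were −0.08 (FABP2) to 0.30 (MTTP) with SE of 0.29 to 0.64 and edgeR adjusted p of 0.994 to 1.00, and 8 of 10 were above 0. The 95% intervals were −0.59 to 1.20 for MTTP, −1.09 to 0.92 for FABP2 and −1.27 to 1.36 for APOA4. They were −1.10 to 1.34 for APOB, −1.06 to 1.38 for APOA1 and −1.24 to 1.09 for APOC3. Differences of more than 2-fold in either direction were thus inside the interval for APOB, APOA1, APOA4 and APOC3. APOB averaged 3988 ± 3174 CPM in 12 casein infused and 3695 ± 3069.7 CPM in 10 water infused steers (SD), and CD36 averaged 526 ± 448 and 467 ± 342 CPM.

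**Figure D4:**
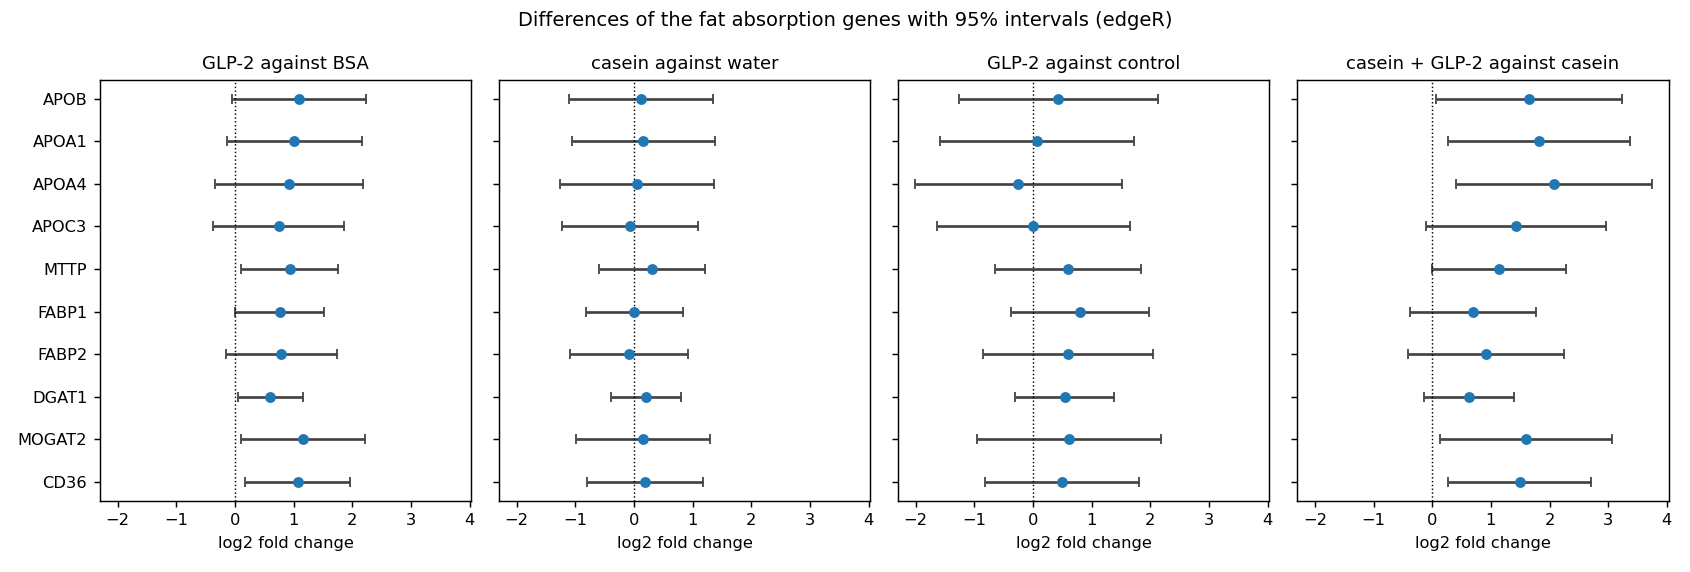
Log2 fold change of each gene with its 95% interval in 4 comparisons (edgeR). Points lie above 0 for all 10 genes with GLP-2 against BSA and with casein + GLP-2 against casein, near 0 for casein against water, and on both sides of 0 for GLP-2 against control.

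The effect of GLP-2 was also fitted within each infusion, in 1 model of the 4 treatments over 15086 genes. In steers infused with water, 0 of 10 passed the test or an unadjusted p of at most 0.05 (0% and 13.9% of all genes), and log2 fold changes ran from −0.25 (APOA4) to 0.80 (FABP1) with edgeR adjusted p of 0.518 to 0.999. In steers infused with casein, 0 of 10 passed (0% of all genes), although for 5 of 10 the p before adjustment was 0.05 or less, as for 24.1% of all genes. There the log2 fold changes were 0.63 (DGAT1) to 2.07 (APOA4), with 1.82 ± 0.75 (SE, edgeR adjusted p = 0.160) for APOA1, 1.65 ± 0.76 (adjusted p = 0.194) for APOB, 1.60 ± 0.71 (adjusted p = 0.180) for MOGAT2, 1.49 ± 0.59 (adjusted p = 0.152) for CD36 and 2.07 ± 0.81 (adjusted p = 0.149) for APOA4. DESeq2 and limma called 0 of 10 in either.

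The difference between these effects, the casein by GLP-2 interaction, was tested directly. No gene of the set passed (edgeR adjusted p = 0.996 for all 10), 0 had a p of 0.05 or less before adjustment (4.28% of all genes), and DESeq2 and limma called 0. APOA4 came nearest, with an interaction of 2.32 ± 1.17 (SE, 95% interval −0.09 to 4.74, unadjusted p = 0.0588 in edgeR's test across all genes). Its mean was 1257 ± 1383 CPM in control, 1056 ± 574 CPM in GLP-2 (SD, n = 5 each), 451 ± 348 CPM in casein and 1893 ± 1882 CPM in casein + GLP-2 steers (SD, n = 6 each). FABP1 and DGAT1 had interactions of −0.11 ± 0.76 and 0.10 ± 0.55 (SE).

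Casein against control and casein + GLP-2 against GLP-2 share their groups with the comparisons above. For casein against control the log2 fold changes were −1.48 ± 0.82 (SE) for APOA4, −0.97 ± 0.76 for APOC3 and −0.71 ± 0.78 for APOB, and −0.53 to 0.14 for 6 others, and the 95% interval for APOA1 was −2.58 to 0.58. For casein + GLP-2 against GLP-2 they were −0.04 (FABP1) to 0.84 (APOA4). In neither did any of the 10 pass in edgeR, DESeq2 or limma, and 0 reached 0.05 before adjustment in edgeR, where 5.66% and 2.64% of all genes did. No gene of the set had groups that did not overlap in any of the 4 pairs of treatments, which 47 to 264 of 15086 genes had.

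The other genes of the pathway were read from 7 lists of 73 genes, of which 70 had a row and 67 were tested. With GLP-2 against BSA, 10 rose, 1 fell and 56 did not pass, so 16.4% were called against 13.5% of all genes, and the median log2 fold change was 0.58. With the replicate block in the fit 5 of 67 were called, 4 of them among the 11, where 4.95% of all genes were. MOGAT1, LPIN1, TM6SF2 and MIA3 kept their call there, and AGPAT3, LPIN3, APOH, SEC23A, PNPLA2, MGLL and HNF4A lost it. Without the follicle-rich steers, and with the villus or the follicle score as a covariate, edgeR called 0 of 67. All 11 kept their sign in those 4 fits. With 1 steer left out, 3 (without control steer 3) to 33 (without control steer 2) were called, where 4.75% and 25% of all genes were.

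Triacylglycerol synthesis had the most calls, with 4 of 10 tested genes higher, 0 lower and 6 not past the test. That was 40% of the list, against 13.5% of all genes. None of the 4 was called without the follicle-rich steers, and AGPAT3 and LPIN3 lost their call with the replicate block. MOGAT1, a relative of MOGAT2, averaged 32.5 ± 11.7 CPM in the GLP-2 injected and 16.7 ± 6.69 CPM in the BSA steers (SD, n = 11 each), which is 0.98 ± 0.25 log2 units higher (SE, edgeR adjusted p = 0.0229). AGPAT3, an acyltransferase of the glycerol phosphate pathway, was 0.78 ± 0.21 log2 units higher (adjusted p = 0.0246). LPIN3 and LPIN1, phosphatidate phosphatases, were 0.69 ± 0.21 (adjusted p = 0.0360) and 1.03 ± 0.32 (adjusted p = 0.0368) log2 units higher. LPIN1 ranged from 25.2 to 47.5 CPM with GLP-2 and from 2.90 to 44.1 CPM with BSA, so the groups overlapped.

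Lipidation of lipoproteins and editing of APOB messenger RNA had 1 call of 8, TM6SF2, a membrane protein needed for lipid loading of lipoproteins, at 627 ± 241 CPM in the GLP-2 injected and 332 ± 140.4 CPM in the BSA steers (SD, n = 11 each), which is 0.94 ± 0.26 log2 units higher (SE, edgeR adjusted p = 0.0255). The call was 12.5% of the list, against 13.5% of all genes. All 8 had a higher fitted mean, as did 50.7% of all genes, and 4 more tended to be higher. Among the other apolipoproteins 1 of 6 tested passed, APOH, a plasma glycoprotein also called beta-2-glycoprotein I, at 53.4 ± 30.7 and 21.96 ± 19.8 CPM (SD, n = 11 each), with a log2 fold change of 1.30 ± 0.42 (SE, adjusted p = 0.0433). The share called was 16.7%, and the list was mixed, with 3 of 6 below 0 and a median of −0.32. APOD and APOA5 tended to be lower, at −1.53 ± 0.62 (SE, edgeR adjusted p = 0.0866) and −1.43 ± 0.60 (adjusted p = 0.0982), and APOE was at −0.80 ± 0.37 (adjusted p = 0.127).

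Vesicle transport of chylomicrons had 2 of 17 higher and 15 not past the test (11.8% called, against 13.5% of all genes). MIA3, also called TANGO1, which helps load large cargo at endoplasmic reticulum exit sites, was 0.59 ± 0.16 log2 units higher (SE, edgeR adjusted p = 0.0259), and SEC23A, a coat protein of the vesicles that leave the endoplasmic reticulum, 0.98 ± 0.33 (adjusted p = 0.0486). Uptake and activation of fatty acids had 0 of 9 called by edgeR, while before adjustment 6 of 9 met 0.05, against 34.6% of all genes, and of those 6 genes 5 were higher with GLP-2. The other was FABP5, the epidermal-type fatty acid carrier, which tended to be lower at −1.01 ± 0.39 log2 units (SE, edgeR adjusted p = 0.0726).

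Lipid droplets and lipolysis had 1 gene higher, 1 lower and 8 not past the test (20% called, against 13.5% of all genes). PNPLA2, the adipose triglyceride lipase, was 0.71 ± 0.24 log2 units higher (SE, edgeR adjusted p = 0.0489), whereas MGLL, which hydrolyses monoacylglycerol, had a log2 fold change of −1.39 ± 0.36 (SE, adjusted p = 0.0239). MGLL ranged from 4.96 to 15.7 CPM with GLP-2 and from 7.90 to 65.3 CPM with BSA. Of the transcription regulators 1 of 7 rose, the enterocyte factor HNF4A, with a log2 fold change of 0.80 ± 0.24 (SE, edgeR adjusted p = 0.0346). The share called in that list was 14.3%. HNF4A averaged 159 ± 43.8 CPM in the GLP-2 injected and 92.3 ± 43.1 CPM in the BSA steers (SD, n = 11 each). Villus markers and follicle markers moved with the same comparison, as given above, and their part in these calls was not tested.

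**Figure D5:**
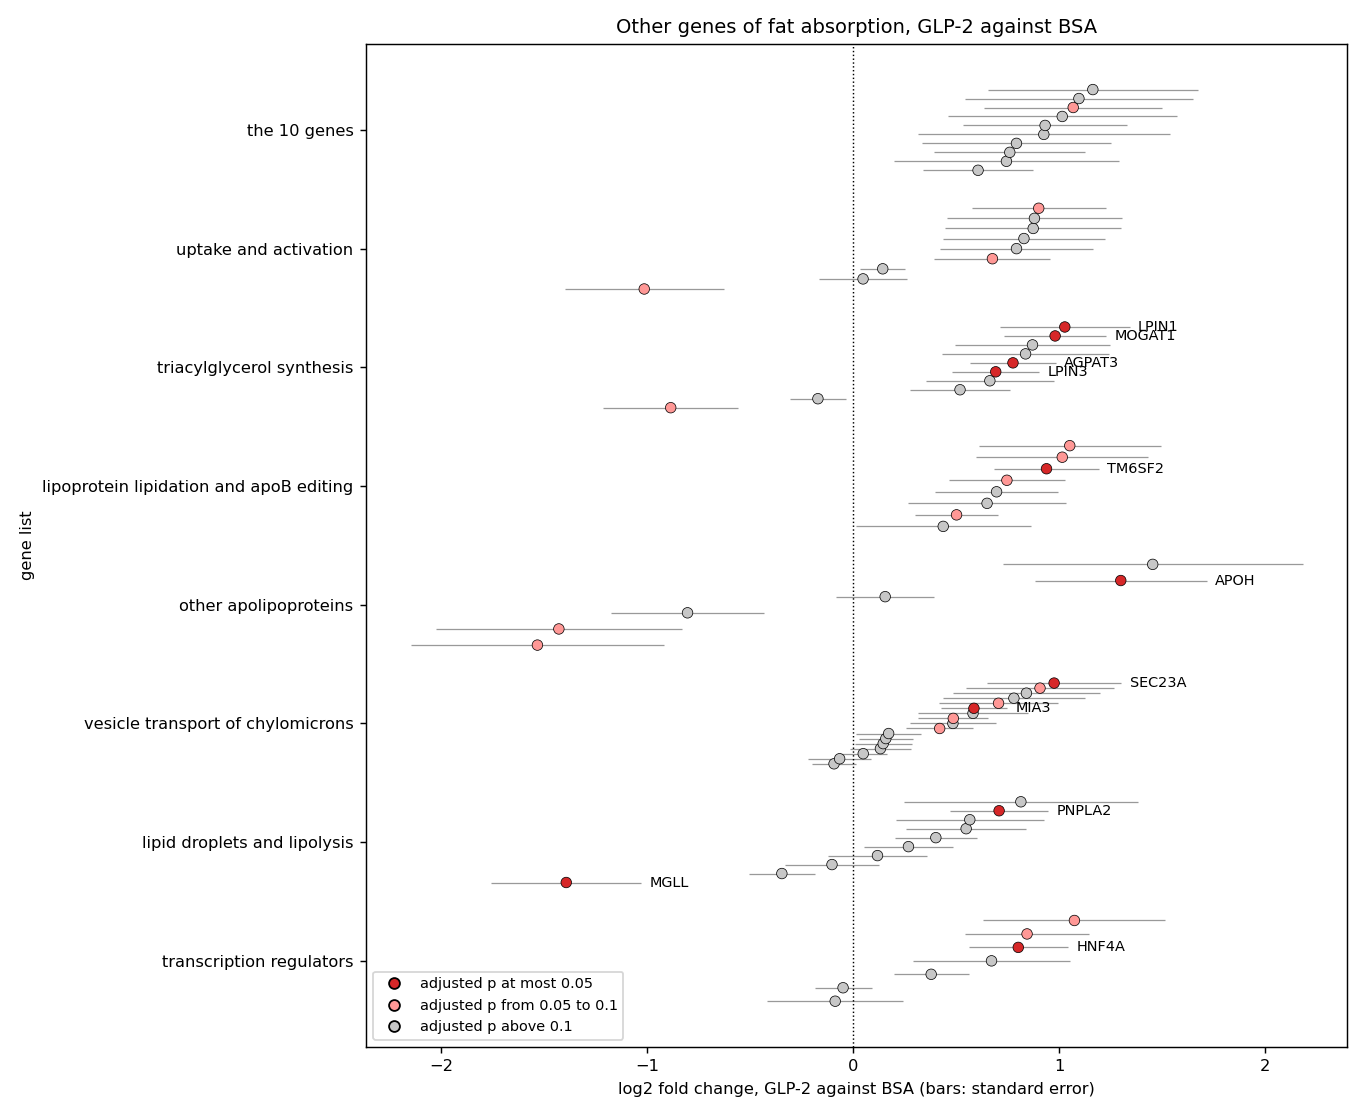
Log2 fold change, GLP-2 against BSA, of the 67 other pathway genes tested by list and of the 10 genes at the top, with bars of 1 standard error and colour by adjusted p. Red points with a name passed an adjusted p of 0.05, 10 of them right of 0 and MGLL left of it, and none of the 10 genes at the top is red in the edgeR test.

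With casein against water 0 of the 67 other pathway genes passed in edgeR, DESeq2 or limma. Of all 14096 genes edgeR and limma called 0% and DESeq2 0.0355%. Before adjustment 1 of the 67 reached 0.05 in edgeR, where 3.36% of all genes did. The median log2 fold change was 0.07.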

How the data were processed

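Jejunal mucosa of 22 steers was sequenced as poly-A selected, strand-specific libraries. Per the labels and the study's methods, the authors filtered reads, aligned them to ARS-UCD1.2 with HISAT2 2.0.5, assembled with StringTie 1.3.3b and counted reads per gene with featureCounts 1.5.0-p3, so the deposited counts are raw. The deposited FPKM equal those counts per length times a constant per steer, which is not the total count alone. The 10 genes and all lists were chosen with earlier results of these data known. Here, counts were tested in R 4.3.3 with edgeR 4.0.16 (filterByExpr with a minimum count of 10, TMM, glmQLFit and glmQLFTest, Benjamini-Hochberg adjustment over all genes, threshold 0.05), as pooled comparisons without a block and as a 4-treatment model. CPM are TMM-scaled, and log2 CPM had a prior count of 2. A marker score is the mean log2 CPM of a list. Neighbours in level and relations between measures were tested by permutation with 100000 resamples, whose smallest p is 1e-05. Depth was 8809666 to 28447810 counts a steer. P-values measure the spread between steers.

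All 10 genes were named in every comparison, up to 4 genes per pathway list past the threshold by smallest p, and the 10 genes most like the pattern of the set, and APOA5, APOD, APOE and FABP5 were named after their values were seen. Alternatives were DESeq2 1.42.0, limma 3.58.1 on log2(FPKM + 1) and log2(FPKM + 0.1), DESeq2's size factors in edgeR, no filter, a gene length correction, the replicate block, the other factor, the villus or follicle score as a covariate, and each steer left out. Leaving out the follicle-rich steers was added after the data were seen. Blocks were strata of body weight: 30 pairs of steers of the same block but another treatment had a mean correlation of residuals of 0.0331, against −0.00641 in 151 other pairs. All columns were matched to a steer and no libraries were identical. Promoter and protein sequences were not used here, and 1 gene of the pathway lists is not reported here. The scripts were tested on simulated data.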

Additional observations from a re-analysis of the deposited data

Results flagged for a closer look

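In casein steers, casein steer 1 stood far below the other 5 for 2 genes by Dixon's test of an extreme value. APOA1 was at 8.37 log2 CPM in that steer, with the nearest other casein steer at 11.59, and APOC3 at 7.05 log2 CPM, with the nearest at 9.80. The gap was 0.644 and 0.629 of the whole range of the group. Of 40 groups of values looked at, 10 genes in 4 treatments, these 2 passed, and chance gives about 1 in 20. The villus enterocyte score of casein steer 1 was 6.22, the lowest of the casein group, and its follicle score 3.50. Their part in the low values was not tested. None of the 10 interaction tests passed.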

How the results depend on the processing

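With GLP-2 against BSA, 0 of the 10 genes were called in 9 of 12 alternatives and with 21 of 22 steers left out in turn. DESeq2 called 1 (21.5% of all genes), limma on log2(FPKM + 1) 2 (15%) and on log2(FPKM + 0.1) 2 (14.2%), and leaving out a steer gave 0 to 4, the 4 without control steer 2 (25% of all genes). Of the other pathway genes 11 were called. With the replicate block 5 were called (4.95% of all genes), and with the block and a gene length correction 6 (8.54%). DESeq2 called 20, limma on log2(FPKM + 1) 18 and limma on log2(FPKM + 0.1) 17. With the villus or the follicle score as a covariate, and without the follicle-rich steers, 0 were called. With 1 steer left out, 3 (without control steer 3, 4.75% of all genes) to 33 (without control steer 2) were called. The shares of all genes given above for DESeq2 and limma hold for these counts too. The block changed no other call in the comparisons of 2 pooled groups. With the villus score as a covariate, the GLP-2 log2 fold change was −0.16 for APOB, −0.086 for APOA1, −0.40 for APOA4, −0.42 for APOC3, −0.054 for MTTP and −0.29 for FABP2, and with the follicle score −0.0275 for APOA4, −0.048 for APOC3, −0.044 for FABP2 and −0.11 for DGAT1. The cause was not tested. In all other alternatives the 10 genes stayed higher with GLP-2, also with each steer left out.

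With casein against water, where calls among these genes and the other pathway genes stayed at 0 in every alternative, the signs were not stable. The log2 fold change was, with the follicle score, −0.25 for APOB, −0.29 for APOA1, −0.55 for APOA4, −0.045 for MTTP, −0.33 for FABP1, −0.012 for DGAT1, −0.35 for MOGAT2 and −0.22 for CD36. With the villus score it was −0.19 for APOA1, −0.46 for APOA4, −0.079 for FABP1, −0.0342 for MOGAT2 and −0.0063 for CD36. Without the follicle-rich steers it was −0.16 for APOB, −0.018 for APOA1, −0.19 for APOA4, −0.22 for FABP1, −0.012 for DGAT1, −0.17 for MOGAT2 and −0.021 for CD36. With the injection as a term it was −0.11 for APOB, −0.14 for APOA1, −0.35 for APOA4 and −0.040 for MOGAT2. With the length correction it was −0.046 for APOB, 0.021 for APOC3 and 0.000840 for FABP2. With the replicate block it was −0.0750 for APOA4 and −0.028 for FABP1, and with block and length −0.11 for APOA4 and 0.015 for FABP2. In limma on log2(FPKM + 1) and on log2(FPKM + 0.1) it was −0.0678 and −0.0680 for APOA1, −0.28 and −0.28 for APOA4 and 0.18 and 0.18 for FABP2. With 1 steer left out it ran from −0.10 to 0.34 for APOB, −0.32 to 0.40 for APOA1, −0.58 to 0.42 for APOA4, −0.44 to 0.18 for APOC3, −0.15 to 0.13 for FABP1, −0.34 to 0.11 for FABP2, −0.11 to 0.30 for MOGAT2 and −0.15 to 0.47 for CD36.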
